A study of Mus musculus with 12 samples.

Results

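Polarization of mouse bone marrow-derived macrophages was compared in cells that had received only vehicle, with 3 libraries of vehicle M1 cells set against 3 libraries of vehicle M0 cells, 6 of the 12 libraries of the series. Bone marrow-derived macrophages are cells of the mononuclear phagocyte line that are grown in a dish from marrow precursors with the growth factor M-CSF. Both groups were cultured for 6 days with M-CSF at 10 ng/ml and were pre-treated for 1 h with DMSO as the vehicle. The M1 group then received LPS at 10 ng/ml and IFN-γ at 25 ng/ml for 16 h, still with DMSO. What the M0 group received during those hours, and the strain, sex and age of the mice, are not stated in the labels. The 6 libraries were taken by their titles, which call them biological replicates 1 to 3 of each group without saying whether these came from separate mice, so p-values measure the spread between these samples. The other 6 libraries, from cells treated with ISRIB, an inhibitor of the integrated stress response, were not part of the comparison itself. They entered the count filter, the scaling between libraries, the mean counts used for ranking and the estimate of that spread.

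LPS is a component of the outer membrane of Gram-negative bacteria and is sensed by the Toll-like receptor TLR4, which switches on NF-κB and, through interferon-β, a second wave of interferon signalling. IFN-γ acts through its own receptor. Genes that answer to interferons often carry a gamma-activated site or an interferon-stimulated response element in their promoters. The response is known for antiviral proteins, guanylate-binding GTPases, antigen presentation on MHC molecules, inflammatory cytokines and chemokines, and nitric oxide, and for a loss of scavenger receptors typical of resting macrophages.

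Total counts were 439976 to 514037 per vehicle library, so that 1 count was worth 1.79 to 2.57 CPM (the count scaled to library size by TMM). The TMM factors differed by group, at 1.07 to 1.15 in M0 and 0.876 to 0.917 in M1. Small fold changes therefore depend on this scaling. RNA was polyadenylated and the libraries were strand-specific, and whether reads were counted on the strand they came from is not given in the sources used here. Symbols whose exons overlap an exon of a gene on the other strand were 24.3% of the 24299 symbols matched to an annotation, and held 92.4% to 93.5% of the counts of a library. Every value below is a count assigned to a symbol, the strand a read came from cannot be told from the table, and opposite-strand neighbours are therefore named beside the genes. Of 18 genes that define macrophages, 15 passed 10 counts in at least 1 vehicle library. The highest was Lyz2, with 316, 334 and 195 counts in M0 and 42, 38 and 52 in M1, while Cd68, Spi1, Tyrobp and Fcgr3 peaked at 26, 20, 17 and 11. In the test described below, 14 of the 18 entered, 6 were higher in M1 and 3, with Lyz2, were lower. Among all tested genes 24.3% were higher and 20.5% lower. Adgre4 did not pass 1 count and Mertk did not pass 5. Of the marker lists of other cell types, 10 of 15 neutrophil genes, 13 of 16 lymphocyte genes, 12 of 14 fibroblast genes and 11 of 15 erythroid, megakaryocyte and mast cell genes were at 0 in all 6 libraries. Summed over each of these 4 lists, the members held at most 8 counts in any vehicle library. The 12 dendritic cell genes summed to 27 to 53 counts in M0 and 338 to 448 in M1, where Xcr1 held 325 to 404 of them. Of the 12, Flt3, Zbtb46 and Cd209a were at 0 in all 6 libraries. Clec9a had 10, 32 and 13 counts in M0 and none in M1, and Batf3 had 0, 0 and 3 in M0 and 28, 0 and 0 in M1. The remaining members did not pass 10 counts.

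Of 2356 genes with enough counts to be tested, 1055 (44.8%) had an adjusted p below 0.05 by the quasi-likelihood test of edgeR, Benjamini-Hochberg adjusted. In M1, 572 of these (24.3%) were higher and 483 (20.5%) lower. Among the 836 tested genes that averaged 50 counts or more, 60.3% were called, 247 of them (29.5%) higher and 257 (30.7%) lower. The median size of a called change was 2.25 on the log2 scale for higher genes and 1.77 for lower genes, and 217 higher genes and 119 lower genes changed by at least 3. The largest fitted changes sat at low counts, as the plot of fold change against mean count shows. In bulk samples such as these, fewer cells that make a transcript and less transcript per cell cannot be told apart.

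**Figure D1:**
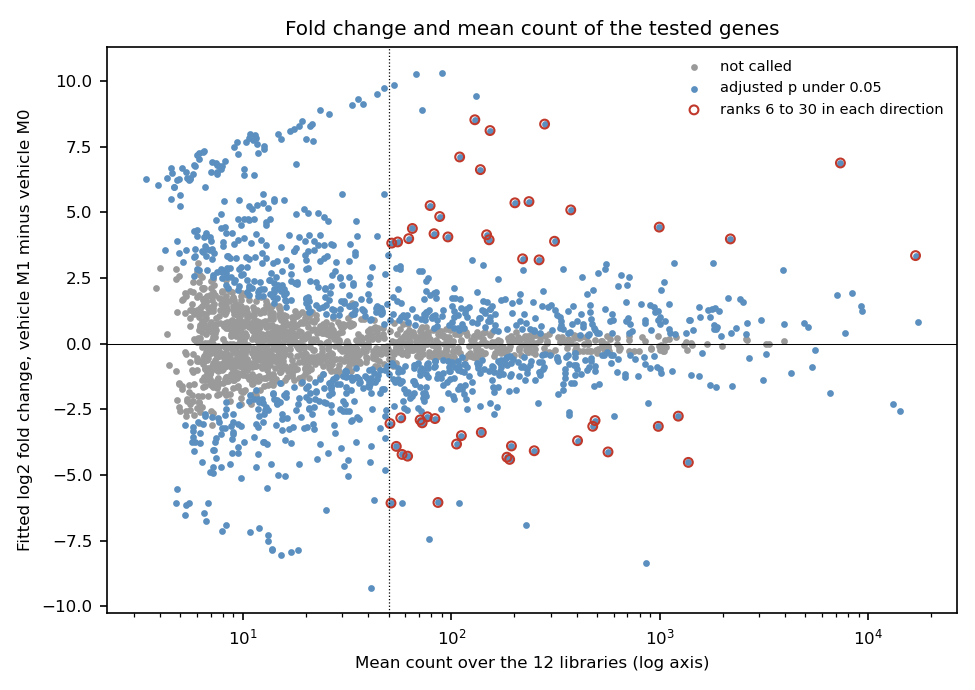
Fitted log2 fold change between vehicle M1 and vehicle M0 (vertical axis) against the mean count over all 12 libraries (horizontal log axis) for the 2356 tested genes. The 1055 called genes are blue, the others grey, the genes described by name at ranks 6 to 30 in each direction are ringed in red, and the dotted line marks a mean of 50 counts, below which no gene was ranked.

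The 5 largest changes in each direction are left aside here, and the genes at ranks 6 to 30 by fitted fold change, among called genes that averaged 50 counts or more and moved one way in each of the 3 same-numbered pairs, are described in turn. Ranking by size chose these 50 genes, so their fold changes describe them and support nothing further. In all 50 the vehicle M0 and vehicle M1 libraries did not overlap, which was also so for 52.7% of all tested genes. Adjusted p-values in the edgeR test ran from 4.46e-20 for Mir6381 to 5.40e-07 for H2-Q4 among the higher genes, and from 9.76e-18 for Card14 to 4.95e-06 for Gm5901 among the lower genes. Exon overlap on the opposite strand was found for 16 of the 25 higher genes, over 24 to 1163 bases with a median of 398.0, and for 17 of the 25 lower genes, over 41 to 3174 bases with a median of 782.0. For the few symbols whose exons the annotation used here does not hold, AV051173, Gm38426 and Gm45916 among those described, the whole RefSeq span stood in for the exons. A further 5 higher and 6 lower genes had an opposite-strand gene within 5000 bases, and 4 and 2 had neither, the unmatched Gm9199 among the 4.

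Ifit2, at 34550694 to 34576419 on chromosome 19 (mm10), encodes an interferon-induced protein with tetratricopeptide repeats that restrains viral messages, and no opposite-strand gene lies within 5000 bases of it. It had 2, 0 and 0 counts in M0 against 258, 173 and 248 in M1, a ratio of 448.8 with a 95% counting interval of 123.8 to 3713. Without vehicle M0 replicate 1, which held both M0 counts, its fitted log2 fold change was 11.03 in place of 8.53. Its paralogs Ifit1 and Ifit3 lie beside it and can share reads with it. Sp110, a nuclear body protein induced by interferon, rose from 23, 24 and 33 counts to 808, 635 and 643, a log2 fold change of 5.10 ± 0.23 (SE). The 3' end of Sp110 runs into G530012D18Rik, which is not a symbol of the table.

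The microRNA symbol Mir6381 carried the smallest p-value of these genes. Its hairpin spans 87 bases at 142623860 to 142623946 on the minus strand of chromosome 3, inside the plus-strand gene Gbp2, and 24 of those bases lie in a Gbp2 exon. Counts assigned to Mir6381 were 194, 146 and 151 in M0 and 16017, 12796 and 15169 in M1 (log2 fold change 6.88 ± 0.18, SE), and the groups lay far apart. That was 0.0334% ± 0.0042 (SD, n = 3) of an M0 library and 3.20% ± 0.27 (SD, n = 3) of an M1 library. Gbp2 encodes a guanylate-binding GTPase that acts against intracellular microbes. Per kilobase of exon, averaged over the 6 libraries, Mir6381 held 85200 counts and Gbp2 11.99. Gbp2 itself had no counts in M0 and 89, 26 and 66 in M1, so that it was at least 26.4-fold higher against a floor of 3 counts per library. Gbp2 has close paralogs, among which reads may be shared.

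Interferon-stimulated response elements were looked for because several of the symbols sit opposite interferon-responsive genes. The letters GAAA, any 2 bases and GAAA again, on either strand, from 250 bases before to 50 bases after a RefSeq start (GRCm38.p6), were found in 3.44% of all 32851 promoters and in 4.23% of the promoters of tested genes. In promoters of the exon neighbours of tested genes the share was 3.10% of 1357. The element was in 4.85% of 206 promoters of higher genes with an exon neighbour and 50 counts or more on average. It was in 6.91% of 217 promoters of the neighbours of those genes. For lower genes of the same kind these shares were 3.00% of 233 promoters and 3.43% of 204. The matches describe letters only. Gbp2, Slfn5, H2-T22 and Psme1 were among 13 neighbours that held the element, opposite the higher symbols Mir6381, Slfn5os, A930015D03Rik and Emc9. The others of the 13 were 4930599N23Rik, Ddx49, Emc4, Fbxl15, Pilra, Plod3, Rsbn1, Tmem140 and Znhit1, and Plod3 and Znhit1 face each other. On the lower side, the element was in a promoter of Brca2 and in promoters of Selenop, the neighbour of Ccdc152. Stretches from 3 such promoters are shown with the element in capitals, 2 of neighbours that face a strongly higher symbol (Gbp2 and Slfn5) and 1 of B2m, a named higher gene of its own. They are plus-strand sequences at chr3:142620594-142620623 for Gbp2, chr11:82951937-82951966 for Slfn5 and chr2:122147518-122147587 for B2m, and lie 69 to 40, 165 to 136 and 169 to 100 bases before the respective RefSeq starts. In the gene models used for exon overlaps, Gbp2 already starts at 142620602 and Slfn5 at 82951349. By those models the Gbp2 element and the whole Slfn5 stretch lie inside the gene span.
Gbp2: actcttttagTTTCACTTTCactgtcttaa
Slfn5: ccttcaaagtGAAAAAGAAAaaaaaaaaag
B2m: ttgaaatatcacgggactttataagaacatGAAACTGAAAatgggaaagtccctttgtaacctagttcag
In Gbp2 the element reads on the minus strand. The B2m stretch also holds GGGA, any base and TTTCC, the letters of an NF-κB site, on its minus strand just after the element, a motif found in 0.411% of all promoters. The gamma-activated site TTCNNNGAA was in 8.30% of all promoters, 6.77% of those of tested genes and 6.41% of those of the exon neighbours of tested genes. It was in 10.2% of promoters of higher genes with a neighbour and 5.53% of those of their neighbours. For lower genes it was in 7.73% of 233 promoters and in 9.31% of 204 promoters of their neighbours.

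Several of the higher genes act in antigen presentation or lie beside a gene that does. Tap1, a subunit of the transporter that carries peptides to MHC class I molecules, had 0, 3 and 1 counts in M0 and 335, 294 and 300 in M1. Its log2 fold change was 8.12 ± 0.38 (SE), or 9.29 without vehicle M0 replicate 2. It starts head to head with Psmb9, a catalytic subunit of the immunoproteasome, with 212 bases of shared exon, and Psmb9 rose from 16, 11 and 31 counts to 48, 14 and 62, with M0 and M1 overlapping (log2 fold change 1.45 ± 0.51, SE, adjusted p = 0.0209). B2m, the light chain of MHC class I molecules, rose from 14, 10 and 0 to 101, 72 and 96, a log2 fold change of 3.88 ± 0.47 (SE), or 4.55 without vehicle M0 replicate 1. B2m lies within the span of the opposite gene Patl2 without touching its exons, and Patl2 had 4 counts in all. H2-Q4, a class Ib heavy chain with near-identical copies in the cluster, rose from 11, 15 and 1 to 85, 85 and 123, a log2 fold change of 3.83 ± 0.50 (SE), and overlaps Gm11131 by 496 bases. The non-coding symbol 9330175E14Rik, which overlaps Nlrc5 by 78 bases head to head, rose from 17, 10 and 4 to 132, 142 and 158. Nlrc5, the transactivator of MHC class I genes, had 0 counts in M0 and 10, 0 and 8 in M1 and was not tested.

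The symbols Gm14023, Apobr, Xcr1 and Fyco1 are, or lie beside, a cytokine or chemokine receptor gene. Gm14023, a non-coding transcript that overlaps 222 bases of Il1a tail to tail, meaning that the 3' ends of both genes run into each other, rose from 163, 97 and 79 counts to 1939, 1801 and 1816, a log2 fold change of 4.44 ± 0.20 (SE). Il1a, which encodes the cytokine interleukin-1α, had 7, 26 and 15 counts in M0 and 9, 7 and 12 in M1, with overlapping groups and no call (log2 fold change -0.37 ± 0.64, SE, adjusted p = 0.667). Apobr, a receptor for apolipoprotein B48, rose from 17, 26 and 24 to 304, 344 and 255. It lies between 2 opposite genes, overlapping Cln3 by 442 bases at its 5' end and Il27 by 103 bases at its 3' end. Cln3, a lysosomal membrane protein, fell from 1694, 1770 and 1797 to 625, 603 and 700, and Il27, a subunit of interleukin-27, had 5 counts in M0 and none in M1. Xcr1, the receptor for the chemokine XCL1 and a marker of cross-presenting dendritic cells, rose from 17, 6 and 11 to 404, 325 and 346, a log2 fold change of 5.37 ± 0.25 (SE). By contrast Clec9a, another marker of those cells, had 10, 32 and 13 counts in M0 and none in M1, and the part of dendritic cells in the Xcr1 counts was not tested. Fyco1, which links autophagosomes to kinesin, lies next to Xcr1 on the same strand of chromosome 9 and rose from 8, 7 and 0 to 138, 167 and 139. The chemokine receptor gene Cxcr6 lies on the other strand within the Fyco1 span, without exon overlap, and had 10 counts in M0 and 1 in M1.

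Counts on AV051173, a non-coding symbol that overlaps 279 bases of Prdx1 head to head, were 4172, 3989 and 3628 in M0 and 33129, 27392 and 30833 in M1 (log2 fold change 3.36 ± 0.10, SE). This symbol alone made up 0.802% ± 0.010 (SD, n = 3) of an M0 library and 6.65% ± 0.44 of an M1 library. Prdx1, a peroxiredoxin that removes peroxides, rose as well, from 12, 20 and 11 to 77, 50 and 123, a log2 fold change of 2.92 ± 0.46 (SE). Averaged over the 6 libraries, AV051173 held 16200 counts per kilobase of its span and Prdx1 16.1 per kilobase of exon. Fth1, the ferritin heavy chain that stores iron, rose from 47, 68 and 35 to 367, 246 and 456, a log2 fold change of 3.23 ± 0.27 (SE). The bestrophin gene Best1 ends 76 bases past it on the other strand. Unc5a, a netrin receptor of neurons, rose from 52, 44 and 64 to 534, 655 and 633 and overlaps the last 34 bases of Hk3, a myeloid hexokinase. Hk3 had 0, 0 and 2 counts in M0 and 24, 20 and 28 in M1, a ratio of 47.6 with a 95% counting interval of 12.7 to 400.4. Perm1, a regulator of muscle mitochondria, rose from 66, 90 and 54 to 481, 487 and 480, and Plekhn1 ends 149 bases past it.

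Oraov1, whose product acts in ribosome biogenesis, rose from 447, 283 and 241 counts to 3720, 4066 and 3852, a log2 fold change of 3.99 ± 0.20 (SE). It overlaps 1100 bases of Ccnd1 tail to tail, and Ccnd1, which encodes cyclin D1, rose from 108, 139 and 83 to 168, 160 and 179, a log2 fold change of 1.03 ± 0.19 (SE). Ccdc85b, which binds transcription factors, rose from 7, 6 and 9 to 116, 121 and 119 and has the longest overlap of the 25, 1163 bases of Fosl1. The AP-1 subunit gene Fosl1 had 29 counts in M0 and 12 in M1 and was not called. Zfp276, a zinc finger gene, rose from 19, 16 and 10 to 417, 463 and 584, a log2 fold change of 5.41 ± 0.25 (SE). Its 3' end overlaps 920 bases of Fanca, a DNA repair gene of the Fanconi anaemia pathway, which rose from 306, 347 and 280 to 441, 504 and 622. At its 5' end Zfp276 overlaps 154 bases of Vps9d1, which had 2 counts in M0 and 16 in M1 and was not tested. Skiv2l2, the helicase of the nuclear exosome, rose from 0, 4 and 6 to 259, 250 and 274, a log2 fold change of 6.63 ± 0.40 (SE), or 7.38 without vehicle M0 replicate 3. It overlaps 452 bases of the lipid phosphatase gene Plpp1, which had 119, 106 and 59 counts in M0 and 74, 64 and 80 in M1 (log2 fold change 0.03 ± 0.26, SE).

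Nelfe, a subunit of the negative elongation factor that pauses RNA polymerase II, had 0, 0 and 5 counts in M0 and 180, 189 and 201 in M1. Its log2 fold change was 7.11 ± 0.42 (SE), or 10.79 without vehicle M0 replicate 3. Nelfe ends 2 bases before the end of the opposite gene Cfb, complement factor B, an enzyme of the alternative complement pathway. Cfb had 156, 167 and 134 counts in M0 and 100, 119 and 141 in M1 and was not called (log2 fold change 0.06 ± 0.18, SE). At the other end of Nelfe, 181 bases away, Skiv2l had 1 count in M0 and 3 in M1. Kdm7a, a histone demethylase, rose from 7, 12 and 4 to 167, 189 and 149, and overlaps 287 bases of 4930599N23Rik, which was not called. Klf3, a transcriptional repressor of the Krüppel-like family, rose from 16, 16 and 11 to 229, 139 and 182 and overlaps Gm20033. Ghdc, a little studied gene with no opposite-strand gene within 5000 bases, rose from 4, 2 and 0 to 528, 480 and 595, a log2 fold change of 8.36 ± 0.31 (SE), or 9.28 without vehicle M0 replicate 1. Trim43c, one of a family of near-identical copies, rose from 7, 15 and 4 to 125, 91 and 102, 16.0-fold, and its log2 fold change was 4.61 without vehicle M0 replicate 2. Its neighbour over 768 bases, 9330159M07Rik, had no counts in any of the 12 libraries. Gm9199, which could not be matched to the annotation, rose from 12, 29 and 32 to 248, 290 and 329.

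**Figure D2:**
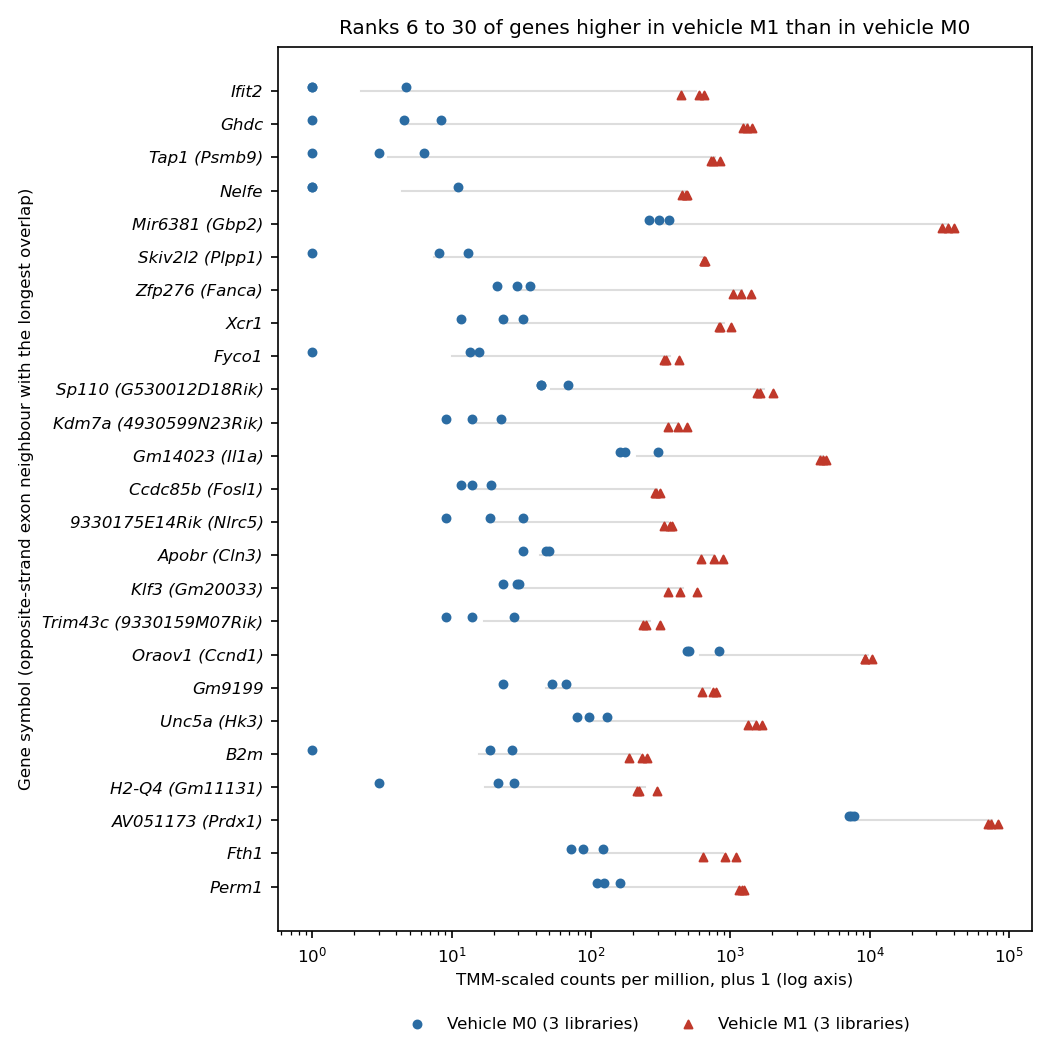
Level of the 25 higher genes at ranks 6 to 30 (rows) in each of the 3 vehicle M0 libraries (blue circles) and 3 vehicle M1 libraries (red triangles), in TMM-scaled CPM plus 1 on a log axis, with grey lines joining the group means. In every row the M1 libraries lie to the right of the M0 libraries, and AV051173 and Mir6381 reach the highest levels in M1, at 75830 and 36490 CPM on average.

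Among the lower genes, Hmgxb3, Nt5dc2 and Ccdc152 overlap genes known from resting macrophages. Hmgxb3, a high mobility group protein gene, fell from 1113, 1225 and 1070 counts to 62, 29 and 57, a log2 fold change of -4.12 ± 0.18 (SE). It overlaps 873 bases of Csf1r tail to tail, and Csf1r encodes the receptor for M-CSF, on which these cells were grown. Csf1r fell from 71, 68 and 35 counts to 14, 8 and 31, with overlapping groups after scaling (log2 fold change -1.31 ± 0.43, SE, adjusted p = 0.0145). Per kilobase of exon Hmgxb3 held 54.6 counts and Csf1r 6.55, averaged over the 6 libraries. Nt5dc2, a nucleotidase domain protein, fell from 1830, 1878 and 1933 to 141, 158 and 184, a log2 fold change of -3.15 ± 0.12 (SE). It overlaps 112 bases of Stab1, a scavenger receptor of resident macrophages. Stab1 fell from 871, 552 and 638 to 327, 362 and 488 by a smaller amount, with overlapping groups after scaling (log2 fold change -0.41 ± 0.17, SE, adjusted p = 0.0472). Ccdc152, of unknown role, fell from 86, 92 and 115 counts to 0, 3 and 0, a ratio of 73.9 with a 95% counting interval of 25.0 to 360.4. Without vehicle M1 replicate 2, which held those 3 counts, its fitted log2 fold change was -9.46 in place of -6.07. Its neighbour over 439 bases is Selenop, a secreted selenium carrier, which fell from 42, 33 and 19 to 0, 5 and 12. Ddx39, an RNA helicase of messenger RNA export, fell from 189, 233 and 220 to 8, 18 and 8 and overlaps 895 bases of Adgre5, the adhesion receptor CD97, which had 59 counts in M0 and 81 in M1 and was not called.

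Card14, which scaffolds NF-κB signalling in skin, fell from 2446, 2680 and 2491 counts to 75, 59 and 118, a log2 fold change of -4.52 ± 0.16 (SE). It overlaps 955 bases of Sgsh, the lysosomal sulfamidase that degrades heparan sulfate. Sgsh had 28, 28 and 21 counts in M0 and none in M1, and was at least 6.44-fold lower against the floor. Mast1, a kinase of neurons, fell from 660, 858 and 730 to 49, 45 and 37 (log2 fold change -3.69 ± 0.17, SE). It has the longest overlap of the lower genes, 3174 bases of the span of Gm38426, a non-coding symbol with 14 counts in M0 and 6 in M1. It also overlaps 1616 bases of Dnase2a, the lysosomal DNase II of macrophages, which had no counts in these 6 libraries. Slc16a6, a transporter of ketone bodies, fell from 110, 162 and 143 to 8, 8 and 26, a log2 fold change of -2.90 ± 0.39 (SE), or -3.65 without vehicle M1 replicate 3. Its neighbour over 2505 bases is the span of Gm45916, a non-coding symbol that held 2806, 2478 and 2097 counts in M0 and 2614, 2168 and 2491 in M1. These raw counts overlapped between the groups. After TMM scaling Gm45916 was called in the other direction (log2 fold change 0.38 ± 0.10, SE, adjusted p = 0.00389), and its call under other scalings was not examined. Slc16a6 also overlaps 1052 bases of Amz2 and 48 bases of the sulfatase gene Arsg, which had 0 and 6 counts over the 6 libraries. Atg7, an enzyme of autophagosome formation, fell from 803, 965 and 878 to 78, 75 and 73 and ends 14 bases before the end of Vgll4, a cofactor of TEAD factors. Vgll4 fell from 38, 44 and 41 to 1, 6 and 10.

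Vti1b, which acts in fusion of late endosomes, fell from 279, 293 and 349 counts to 34, 17 and 16, a log2 fold change of -3.38 ± 0.34 (SE). Its neighbour over 285 bases is Arg2, the mitochondrial arginase that competes with nitric oxide synthase for arginine, which had 47, 28 and 44 counts in M0 and 35, 26 and 30 in M1 (log2 fold change 0.00 ± 0.37, SE). Pigb, a mannosyltransferase of the GPI anchor, fell from 297, 426 and 421 to 23, 21 and 14. Ccpg1, a receptor for autophagy of the endoplasmic reticulum, overlaps it by 2170 bases and fell from 378, 360 and 432 to 169, 138 and 169. At the 5' end of Pigb lies 2310009A05Rik, over 661 bases, with no counts in these 6 libraries. Focad, which stabilises a helicase complex of messenger RNA decay, fell from 2169, 2032 and 1943 to 236, 191 and 261. Its neighbour over 746 bases, Hacd4, makes very long chain fatty acids and had 8 counts in M0 and 4 in M1. Slc31a2, a copper transporter, fell from 81, 156 and 150 to 9, 18 and 9. Fkbp15, a gene of the FK506-binding protein family that ends 1931 bases past it on the other strand, rose from 11, 7 and 5 to 42, 32 and 33 (log2 fold change 2.60 ± 0.45, SE, adjusted p = 3.39e-05). Pdcd11, a ribosome biogenesis factor, fell from 353, 632 and 536 to 28, 16 and 24. Opposite Pdcd11 over 436 bases is Calhm2, a channel gene of microglia and macrophages, with 2 counts in M0 and none in M1. Rmdn1, a microtubule-linked protein of mitochondria, fell from 405, 366 and 325 to 14, 18 and 9, and Wwp1, an E3 ubiquitin ligase, lies 1371 bases past it and was not called.

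Ifi27l2a, an interferon-inducible gene in many cells, was among the lower genes. It fell from 449, 365 and 344 counts to 13, 13 and 15, a log2 fold change of -4.41 ± 0.25 (SE). Its relative Ifi27, which ends 1928 bases past it on the other strand, went the other way, from 9, 6 and 4 counts to 101, 75 and 77, a log2 fold change of 4.11 ± 0.43 (SE). Both belong to 1 family, and reads may be shared between its members.

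Brca2, a gene of homologous recombination, fell from 135, 94 and 138 counts to 1, 12 and 1, a log2 fold change of -4.28 ± 0.56 (SE), or -6.41 without vehicle M1 replicate 2. It overlaps 41 bases of Gm42529. Cdan1, a nuclear protein linked to chromatin assembly, fell from 178, 249 and 249 to 18, 16 and 11 and overlaps 2207 bases of Stard9, a mitotic kinesin. Tpra1, a membrane protein of adipocytes, fell from 69, 84 and 99 to 5, 4 and 1, and Mcm2, a subunit of the replicative helicase, starts 3471 bases away with no counts in these libraries. Tubb6, a β-tubulin, fell from 133, 131 and 183 to 12, 29 and 8, a log2 fold change of -2.78 ± 0.36 (SE), or -3.51 without vehicle M1 replicate 2. Afg3l2 ends 2015 bases past it and had 1 count over the 6 libraries. Ssh1, a cofilin phosphatase, fell from 106, 94 and 86 to 6, 10 and 10 and has no opposite-strand gene within 5000 bases. Bbip1, a subunit of the BBSome of cilia, fell from 164, 168 and 111 to 21, 7 and 18 and overlaps 97 bases of Shoc2, a scaffold of RAS signalling that was not called.

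Rnf150, a membrane E3 ligase gene, fell from 162, 153 and 148 counts to 0, 0 and 5. Its log2 fold change was -6.05 ± 0.51 (SE), or -10.10 without vehicle M1 replicate 3. It overlaps Gm45449, which lies inside it, by 782 bases. Mblac1, a metallo-β-lactamase domain nuclease with no opposite-strand gene within 5000 bases, fell from 93, 101 and 90 to 1, 6 and 7. The antisense symbol B430010I23Rik fell from 740, 1006 and 1010 to 112, 55 and 109, a log2 fold change of -2.93 ± 0.19 (SE), and lies inside Mtus1, a microtubule-associated tumour suppressor with 65 counts in M0 and 16 in M1 and no call. Gm5901 lies wholly on exons of Fam160a2 and fell from 99, 135 and 108 to 8, 22 and 6, a log2 fold change of -2.82 ± 0.42 (SE), or -3.62 without vehicle M1 replicate 2. Fam160a2, an adaptor of endosome transport, had 2 counts over the 6 libraries.

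**Figure D3:**
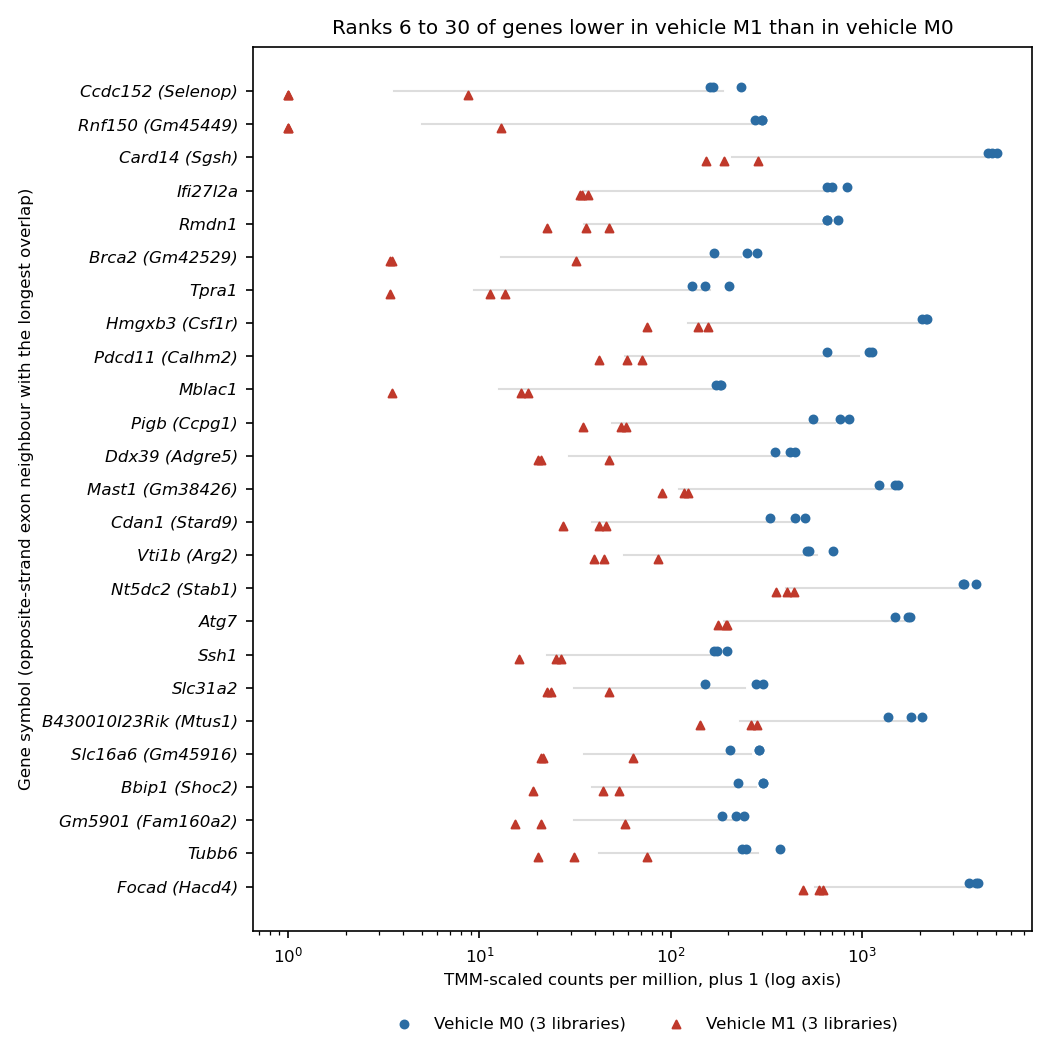
Level of the 25 lower genes at ranks 6 to 30 (rows) in each of the 3 vehicle M0 libraries (blue circles) and 3 vehicle M1 libraries (red triangles), in TMM-scaled CPM plus 1 on a log axis, with grey lines joining the group means. In every row the M1 libraries lie to the left of the M0 libraries, and the M0 means run from 159.6 CPM for Tpra1 to 4792 CPM for Card14.

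Set side by side, the named symbols mostly held more counts per kilobase of exon than the neighbour they overlap. That was so for 9 of 13 higher genes and 12 of 14 lower genes whose longest-overlapping neighbour is a symbol of the table. The named symbols had to be called and to reach a minimum mean count, and their neighbours did not. That choice favours the named symbol, so these 2 shares describe the chosen pairs and test nothing. The neighbour was called in the same direction for 6 higher and 5 lower genes, in the opposite direction for 1 higher gene (Apobr against Cln3) and 1 lower gene (Slc16a6 against Gm45916), not called for 4 and 4, and not tested for 2 and 4. The call of Gm45916 rested on scaled values, since its raw counts overlapped between the groups.

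Over all tested genes, 1586 of the 2340 matched to the annotation (67.8%) had an opposite-strand exon overlap. Of these 713 (45.0%) were called, 348 higher and 365 lower, and of the 754 without an overlap 334 (44.3%) were called, 219 higher and 115 lower. An overlap was thus found for 61.4% of 567 higher genes and 76.0% of 480 lower genes. Tail-to-tail pairs were the most common kind, with 913 tested genes of which 193 were higher and 229 lower. Head-to-head overlaps had 94 higher and 72 lower of 406, and genes lying one inside the other 61 and 64 of 267. Where both genes of a pair were tested, in 412 pairs, both were called in the same direction in 71, in opposite directions in 30, only 1 was called in 187 and neither in 124. Of the 247 higher genes that averaged 50 counts or more, 219 had an exon neighbour, which was protein coding for 190. The neighbour was a symbol of the table for 198, and 88 of these averaged under 10 counts. For the 257 lower genes 222 had an exon neighbour, protein coding for 201. It was a symbol of the table for 204, and 88 of these averaged under 10 counts. The share with an exon neighbour among all tested genes of that average was not counted, so these numbers give no enrichment.

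**Figure D4:**
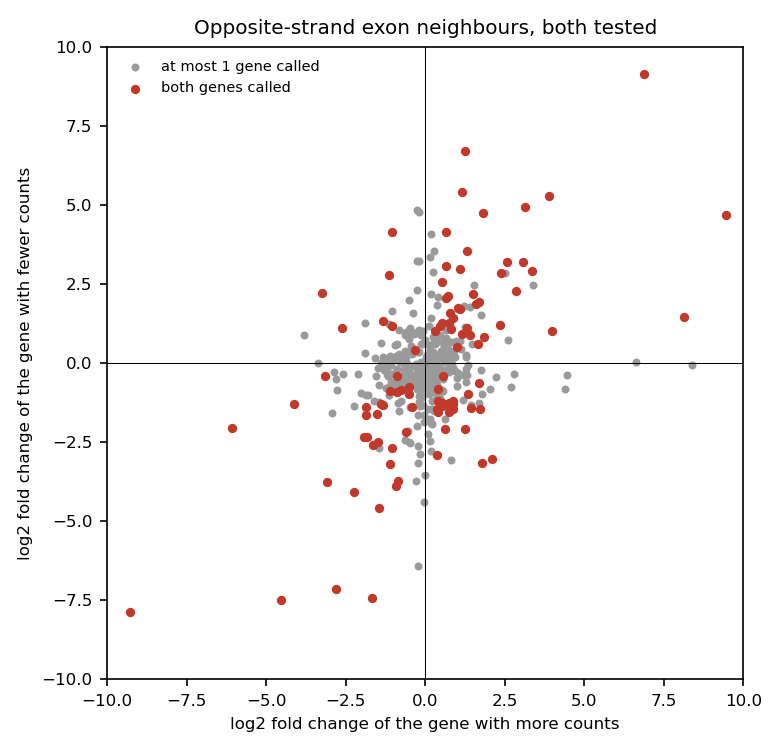
Log2 fold changes, vehicle M1 minus vehicle M0, of both genes in the 412 pairs whose exons overlap on opposite strands and that were both tested, with the gene that holds more counts on the horizontal axis and the other on the vertical axis. The 101 pairs with both genes called are red, 71 of them in the quadrants of equal sign and 30 in those of opposite sign.

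Gene lists were then read for their members and for the symbols that face a member, against the background of 24.3% higher and 20.5% lower among all tested genes, whose median log2 fold change was 0.01. Members that passed the count filter only through their M1 libraries had to differ, so these counts describe the lists and test nothing. For each list with 0 lower members below, there were also 0 at an unadjusted p under 0.05 in edgeR and 0 called by DESeq2 or limma-voom. Of 67 interferon-stimulated antiviral genes in the table, 33 were tested, 27 were higher and 0 lower, with a median of 4.11, or 2.75 with genes at 0 in M0 set at the floor. The list holds Ifi27 but not its lower relative Ifi27l2a (log2 fold change -4.41), so the 0 holds for the chosen members only. Rsad2, which makes an antiviral nucleotide, and Ifit1, Isg15 and Cmpk2 had no counts in M0. Isg15, a ubiquitin-like modifier, had 20, 14 and 15 counts in M1 and was at least 7.18-fold higher. Parp9 and Dtx3l, partners in an ADP-ribosylation complex that lie head to head over 458 bases, rose together. Parp9 went from 228, 254 and 256 counts to 1159, 977 and 1160 (log2 fold change 2.55 ± 0.12, SE) and Dtx3l from 23, 29 and 33 to 228, 173 and 191 (3.19 ± 0.24). Slfn5os, the antisense symbol at Slfn5, rose from 610, 391 and 397 to 3130, 2537 and 3186, a log2 fold change of 3.06 ± 0.16 (SE), and Slfn5, a Schlafen family gene with close paralogs, rose from 14, 1 and 0 to 32, 32 and 42.

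Of 21 interferon-induced GTPases 6 were tested and 6 were higher, with a median of 4.99, or 3.77 at the floor. Among them Igtp, with 10, 0 and 2 counts in M1, was not called by DESeq2 or limma-voom, or without any 1 of the vehicle M0 libraries or vehicle M1 replicate 1 (adjusted p 0.0627 to 0.235). Gbp7 had no counts in M0 and 60, 45 and 34 in M1, at least 20.4-fold higher. Among STAT, IRF and JAK genes 6 of 9 tested were higher and 0 lower. Stat2, a signal transducer of interferon receptors, had 2 counts in M0 and 21, 18 and 26 in M1. Stat5b, which signals for growth factors and cytokines, had no counts in M0 and 66, 65 and 45 in M1, at least 25.9-fold higher. Irf7, the amplifier of type I interferon, rose from 2, 5 and 0 to 41, 31 and 72, a log2 fold change of 4.68 ± 0.64 (SE).

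Cytokine and chemokine genes had 7 of 10 tested members higher and 0 lower, with a median of 4.76, or 3.13 at the floor, and 13 of 39 members were at 0 in all 6 libraries. Cxcl9, which attracts T cells through CXCR3, had no counts in M0 and 112, 78 and 82 in M1, at least 39.9-fold higher. Ccl5 and Cxcl10 also had none in M0 and were at least 29.8-fold and 9.74-fold higher. The 6 tested symbols that face a member were all higher. Gm16712, which overlaps 270 bases of Ebi3, rose from 1177, 1135 and 1045 counts to 6507, 6076 and 5348, a log2 fold change of 2.82 ± 0.11 (SE). Ebi3, a subunit of interleukin-27 and interleukin-35, did not reach the count filter. Zmynd15, opposite the chemokine gene Cxcl16 over 552 bases, rose from 4239, 3426 and 3566 to 10340, 10927 and 9521, a log2 fold change of 1.86 ± 0.13 (SE), and Cxcl16 rose by 0.82 ± 0.21. Numa1, opposite Il18bp, the decoy for interleukin-18, rose from 225, 145 and 131 to 905, 731 and 842.

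In the list of nitric oxide, arginine, itaconate and prostaglandin enzymes 7 of 11 tested were higher and 0 lower, with a median of 3.96, or 2.40 at the floor. Nos2, the inducible nitric oxide synthase, had no counts in M0 and 20, 12 and 38 in M1, at least 10.1-fold higher. Acod1, which makes itaconate, rose from 0, 4 and 2 to 126, 38 and 90, a log2 fold change of 5.70 ± 0.59 (SE). Ptgs2, the inducible cyclooxygenase, had none in M0 and 12, 12 and 12 in M1, at least 5.28-fold higher. Only 4 of 52 Toll-like receptor and NF-κB genes had enough counts to be tested, and 4 were higher, including Cd14, which was not called without vehicle M0 replicate 1 (adjusted p = 0.051) or vehicle M1 replicate 2 (0.0787). Psd, opposite Nfkb2 over 299 bases, rose from 1052, 1014 and 1087 to 2103, 2191 and 1992 (log2 fold change 1.39 ± 0.10, SE), and Nfkb2, a subunit of the non-canonical NF-κB pathway, rose by 0.88 ± 0.19. Cell death and inflammasome genes had 5 of 7 tested higher and 0 lower, among them Casp1, the protease that matures interleukin-1β, with 1 count in M0 and 22, 16 and 10 in M1.

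Antigen presentation and costimulation genes had 14 of 16 tested higher and 0 lower, with a median of 2.64, or 2.31 at the floor, and 5 of 6 tested symbols opposite a member were higher. Cd274, the inhibitory ligand PD-L1, had no counts in M0 and 26, 11 and 57 in M1, at least 13.6-fold higher. Emc9, opposite Psme1 over 14 bases, rose from 107, 109 and 101 to 473, 673 and 591 (log2 fold change 2.86 ± 0.18, SE), and Psme1, a subunit of the proteasome activator PA28, rose by 2.28 ± 0.59. A930015D03Rik, which shares 1003 bases with H2-T22, rose from 18, 18 and 9 to 96, 81 and 71.

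Glycolysis and hypoxia genes had 6 of 12 tested higher and 0 lower, with a median of 2.52. Aldoa, Gapdh, Pgk1 and Hk3 were the members with the largest changes, and Gapdh rose from 4, 2 and 7 counts to 40, 20 and 59 (log2 fold change 3.53 ± 0.66, SE). The symbol opposite Txnip, a brake on glucose uptake, went the other way. Gm15441, which overlaps 606 exon bases of Txnip, with 1 of these genes inside the span of the other, fell from 24970, 25951 and 23046 counts to 3614, 3506 and 4331. Its log2 fold change was -2.29 ± 0.10 (SE), and its share of a library fell from 5.04% ± 0.18 (SD, n = 3) to 0.834% ± 0.084. Txnip itself averaged 4.67 counts. Of citric acid cycle and respiratory chain genes 4 of 50 were tested, with 1 lower and 0 higher, also 0 at an unadjusted p under 0.05 in edgeR and 0 by DESeq2 or limma-voom.

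Resting macrophage genes had 8 of 18 tested members lower and 2 higher, with a median of -0.74, and the 5 tested symbols opposite a member were all lower, with a median of -3.15. The scavenger receptor Cd163 fell from 1501, 1488 and 1496 counts to 1, 1 and 8. Folr2, the folate receptor of resident macrophages, fell from 38, 40 and 22 to 0, 2 and 0, a ratio of 37.8 (95% counting interval 10.2 to 316.7). Cebpa, a myeloid transcription factor, fell from 28, 34 and 18 to 0, 0 and 2, a ratio of 30.3 (8.11 to 254.2). Apoe, the lipid carrier, also fell (log2 fold change -1.14 ± 0.20, SE). Zeb2, a repressor that maintains macrophage identity, rose by 0.39 ± 0.10 (SE) after TMM scaling, while the antisense symbol Zeb2os fell from 1150, 1186 and 1163 to 373, 326 and 447, by 1.21 ± 0.13. Adgre1, the F4/80 antigen, rose from 20, 9 and 6 to 38, 6 and 41, with overlapping groups.

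Lysosomal genes moved both ways, with 10 of 32 tested higher, 7 lower and a median of 0.27, while among 13 symbols opposite a member 5 were higher and 8 lower. Fdft1, the squalene synthase of cholesterol synthesis, overlaps 774 bases of Ctsb and fell from 24534, 26220 and 25905 counts to 3582, 3010 and 3170, a log2 fold change of -2.57 ± 0.10 (SE). It made up 5.24% ± 0.44 (SD, n = 3) of an M0 library and 0.711% ± 0.049 of an M1 library. Ctsb, the protease cathepsin B, was not called (log2 fold change -0.34 ± 0.26, SE). Per kilobase of exon Fdft1 held 3407 counts and Ctsb 18.7. Ctsa, the protective protein cathepsin A, fell by 1.88 ± 0.18 (SE), and Pltp, the phospholipid transfer protein that overlaps it by 495 bases, fell by 1.63 ± 0.10. Ddb2, a sensor of ultraviolet damage opposite the acid phosphatase gene Acp2, rose from 7075, 5202 and 5166 to 12593, 11104 and 11926 (log2 fold change 1.43 ± 0.12, SE), and Acp2 fell by 1.41 ± 0.29. Tmem132a, opposite the peptide transporter gene Slc15a3 over 1541 bases, rose from 15849, 13410 and 14708 to 19937, 19438 and 19686, and Slc15a3 rose by 1.08 ± 0.32. Ctsc, the protease cathepsin C, rose from 4, 6 and 2 to 38, 34 and 59 (log2 fold change 3.80 ± 0.58, SE).

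Of cholesterol and lipid genes 10 of 56 were tested, with 1 higher and 3 lower. Beside Fdft1, Sqle, the squalene epoxidase that follows it in the pathway, fell from 222, 212 and 177 counts to 61, 88 and 66, a log2 fold change of -1.10 ± 0.22 (SE). Cell cycle and DNA replication genes had 2 of 12 tested higher and 1 lower, and 30 of 66 members were at 0 in all 6 libraries. Aurka, the mitotic kinase, fell from 24, 21 and 46 to 4, 6 and 2 (log2 fold change -2.51 ± 0.62, SE). Cdkn1a, the cell cycle inhibitor p21, had none in M0 and 16, 2 and 12 in M1, at least 4.35-fold higher. Bysl, a ribosome biogenesis gene opposite Ccnd3 over 361 bases, rose from 282, 230 and 173 to 976, 962 and 1204, a log2 fold change of 2.60 ± 0.15 (SE), while Ccnd3, which encodes cyclin D3, was not called.

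**Figure D5:**
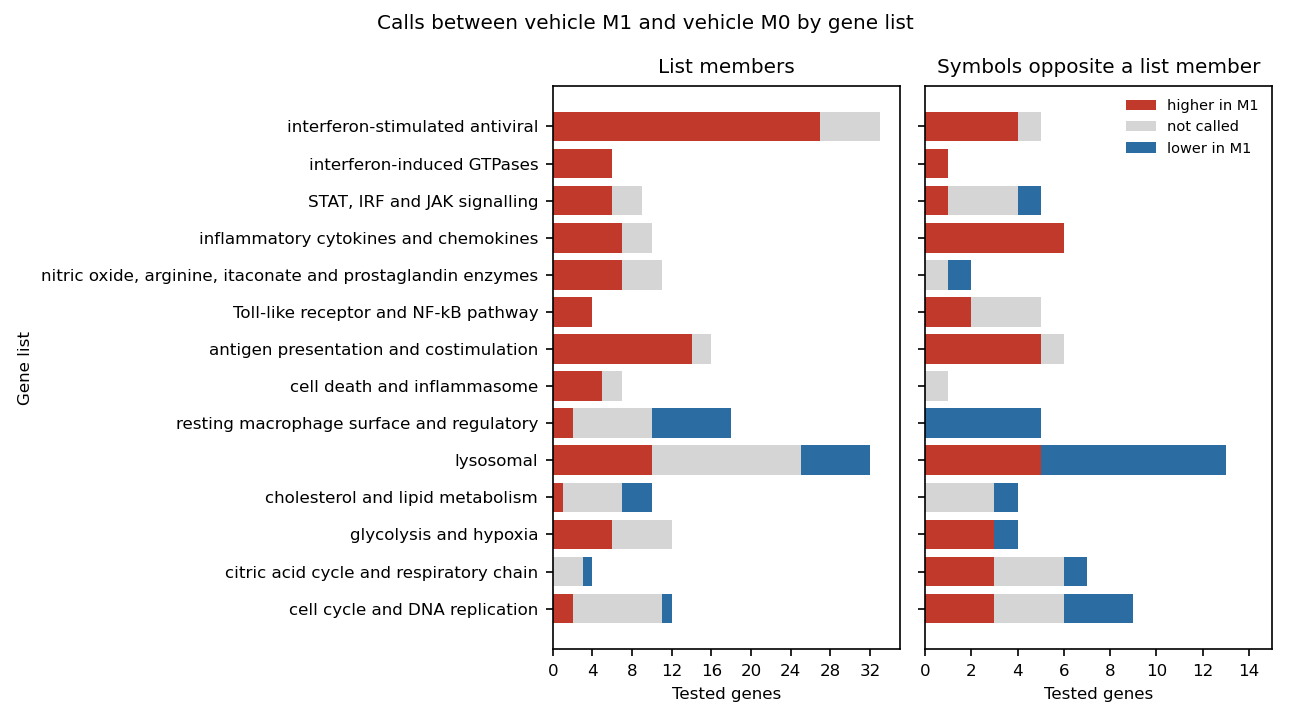
Number of tested genes in each list (rows) that were higher (red), not called (grey) or lower (blue) in vehicle M1 than in vehicle M0, for the members of the list (left) and for symbols whose exons overlap a member on the opposite strand (right), with a separate count axis for each. The interferon, GTPase, cytokine and antigen presentation lists show 27 of 33, 6 of 6, 7 of 10 and 14 of 16 tested members higher, and the resting macrophage list 8 of 18 lower.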

How the data were processed

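Polyadenylated RNA from 12 cultures of bone marrow-derived macrophages was sequenced as strand-specific TruSeq libraries on an Illumina NovaSeq, per the labels' protocols. The authors deposited whole-number counts per gene symbol for 24552 symbols, and a table of log2 values of the same symbols that was used only in 1 alternative. The submitters' processing notes name FastQC, HTSeq, DESeq2 and mm10, and the aligner and strand setting are not given in the sources used here. The deposited counts entered edgeR 4.0.16 (R 4.3.3) unchanged. The filter filterByExpr, at its minimum count of 10 and minimum total of 15, left 2356 genes with 97.6% of counts, scaled by TMM and fitted with a mean per group over all 12 libraries and no replicate block. Quasi-likelihood tests were adjusted by Benjamini-Hochberg over the 2356 genes at 0.05. The SE of a log2 fold change is that implied by its F statistic.

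Vehicle totals were 439976 to 514037, and a floor of 3 counts was 0.000584% to 0.000682% of a library. Floors and 95% intervals cover counting error only, since the reads carry no molecular identifiers. Values of 2 (12645) outnumbered values of 1 (6991), and 76.1% of values from 2 to 20 were even against 50.2% above 20, so such intervals may be too narrow. The common coefficient of variation was 0.275.

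Named genes were called, averaged 50 counts or more, moved one way in each of the 3 same-numbered pairs, and ranked 6 to 30 by fold change in each direction. Their opposite-strand neighbours in the table were also named, with up to 4 called members of each list by fold change and up to 4 called symbols opposite a member by count, with that member. Among called members and neighbours, Apoe, Adgre1, Zeb2, Stab1, Csf1r, Selenop, Isg15, Nfkb2, Cxcl16, Psme1, Slc15a3, Acp2, Ctsa, Psmb9 and Slfn5 were given values of their own after these were seen. Members and lists were chosen with earlier results of these data known. Opposite-strand exon overlaps came from GENCODE M21 gene models (GRCm38, the build of mm10), with symbols matched by name (23986), by RefSeq synonym (133) or, lacking exons there, by RefSeq span (180), and promoters from RefSeq (GRCm38.p6). The test was tried on simulated counts. Correlations of same-numbered deviations across genes were 0.0313, -0.0539 and -0.00123, so the numbers were not taken to pair the samples.

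Alternatives were upper-quartile scaling, DESeq2 (1.42.0) size factors and its Wald test, limma (3.58.1) with voom or on the deposited log2 values, other filters, the 6 vehicle libraries alone, a replicate block, a minimum absolute log2 fold change of 1, an overlap of at least 100 bases, and leaving out each library. Counts halved and rounded up, and genes within 5000 bases, were chosen after seeing the data.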

Additional observations from a re-analysis of the deposited data

How the results depend on the processing

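The number of called genes moved most when genes averaging under 50 counts were left out, to 530, with 262 higher and 268 lower, since fewer genes entered the test. With a minimum absolute log2 fold change of 1 it was 846, 473 higher and 373 lower. It was 895 with counts halved and rounded up and 897 with the 6 vehicle libraries alone, 1013 with no filter, and 1018 to 1092 under the other scalings and tests. Leaving out 1 library gave 963 to 1024 called genes, with 534 to 583 higher and 421 to 442 lower, of which 899 to 926 were also called with all libraries. When the replicate number was fitted as a block, 1047 genes were called, 1027 of them also called without it. Of 138 genes followed through the alternatives, 1 lost its call with the block (Pdzd9, adjusted p = 0.0508). With an overlap of at least 100 bases, 51.9% of higher and 68.8% of lower genes had an opposite-strand exon neighbour. The 138 genes followed were those at ranks 1 to 30 in each direction and the list members and opposite symbols chosen by rule. Other neighbours and members given values, Stab1, Csf1r, Psmb9 and Gm45916 among them, were not followed, and their calls under the alternatives were not examined. No fold change of the 138 changed sign under the alternatives run. The 50 ranked genes kept direction and call under all 16 alternatives run for each, and 126 of the 138 did so. The other 12, Acadvl, Atp6v1a, Bcl2l12, Cd14, Cerkl, Fcgr1, Igtp, Ino80dos, Pdha1, Pdzd9, Slc11a1 and Ufsp2, lost the call under at least 1, and the cause was not tested. Before the start site alone, the response element was in 6.45% of promoters of neighbours of higher genes. It was there in 2.8% of promoters of neighbours of tested genes and in 2.98% of all promoters. Depth limits the genes under the count filter, which were not tested.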
